A study of Mus musculus with 16 samples.

Results

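The regions described here are 4098 weak Miz1 peaks of 70Z/3 cells that lay away from the ends of protein-coding genes and overlapped a peak called in P6D4 cells, out of 10462 peaks in the 70Z/3 list. A peak was taken when its pileup, the number of tags stacked at its summit, was under 25, when its summit lay more than 5 kb from either end of every protein-coding gene, and when it shared at least 1 bp with a P6D4 peak; chromosome 15 was left out. 70Z/3 is a mouse lymphoblast line of the pre-B stage, and P6D4 is a mouse SCID.adh thymic lymphoma line, at the DN3 stage of T cell development. Neither line carried a stated treatment or engineered allele. Each line gave 1 Miz1 ChIP-Seq library from 1 lysate, made with a rabbit antibody to Miz-1, and 3 RNA-Seq libraries. With 1 ChIP library per line, no difference between sets of peaks could be tested; the intervals given for shares of peaks are exact binomial (Clopper-Pearson) 95% intervals that cover counting error only and treat neighbouring peaks as separate.

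Miz1 is the product of Zbtb17, a DNA-binding protein with zinc fingers and a POZ domain. It binds near the start sites of its target genes, can act as an activator, and represses some targets, such as cell cycle inhibitor genes, in a complex with Myc. It is known for roles in early B and T lymphocyte development. ChIP-Seq peak callers mark places where immunoprecipitated fragments exceed a control, so a list can hold bound sites as well as places where fragments pile up for other reasons, such as repeated sequence or an uneven control.

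Of the 4098 peaks, 3 (0.0732%, interval 0.0151 to 0.214%) touched any of the RefSeq start windows used. Each window is the 300 bases from 250 before to 50 after an annotated gene start. The same was true of 31 of the 4166 weak distal peaks called in 70Z/3 only (0.744%, 0.506 to 1.05%) and of 78 of the 112 peaks that were shared, had a pileup of 25 or more and lay within 5 kb of a gene end (69.6%, 60.2 to 77.98%). The rule keeps member summits more than 5 kb from coding gene ends, so the contrast with peaks near gene ends follows from the choice of sets. All 3 windows belong to long non-coding RNA genes, and the near absence of coding starts follows from the rule as well. They are shown because they are all the windows that members touched and because they have a feature in common. Contact with annotated genes was wider: 38 members lay over 5S rRNA genes, described below, and touched none of the windows used. Sequences are from RefSeq (GRCm38.p6, the same build as the peak coordinates), 5′ to 3′ on the gene's strand, and capitals mark the bases inside the 70Z/3 peak. The windows are chr11:41710094-41710393 on the plus strand, chr12:77553461-77553760 on the plus strand and chrX:47436492-47436791 on the minus strand.
A230004M16Rik: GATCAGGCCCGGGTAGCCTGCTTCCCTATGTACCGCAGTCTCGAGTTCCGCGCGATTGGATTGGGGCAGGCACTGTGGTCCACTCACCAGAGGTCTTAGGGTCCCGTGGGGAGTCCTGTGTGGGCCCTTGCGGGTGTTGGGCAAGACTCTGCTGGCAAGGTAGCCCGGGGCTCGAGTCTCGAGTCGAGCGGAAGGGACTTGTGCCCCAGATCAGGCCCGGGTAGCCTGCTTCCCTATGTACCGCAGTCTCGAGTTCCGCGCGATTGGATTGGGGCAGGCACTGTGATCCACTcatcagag
Gm35240: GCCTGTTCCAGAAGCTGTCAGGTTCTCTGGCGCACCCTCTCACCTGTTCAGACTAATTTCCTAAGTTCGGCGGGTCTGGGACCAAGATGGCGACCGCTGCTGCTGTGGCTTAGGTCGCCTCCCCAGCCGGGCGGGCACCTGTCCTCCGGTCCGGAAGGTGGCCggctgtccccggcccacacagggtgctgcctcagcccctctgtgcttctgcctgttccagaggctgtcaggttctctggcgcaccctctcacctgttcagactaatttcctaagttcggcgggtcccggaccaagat
Gm5636: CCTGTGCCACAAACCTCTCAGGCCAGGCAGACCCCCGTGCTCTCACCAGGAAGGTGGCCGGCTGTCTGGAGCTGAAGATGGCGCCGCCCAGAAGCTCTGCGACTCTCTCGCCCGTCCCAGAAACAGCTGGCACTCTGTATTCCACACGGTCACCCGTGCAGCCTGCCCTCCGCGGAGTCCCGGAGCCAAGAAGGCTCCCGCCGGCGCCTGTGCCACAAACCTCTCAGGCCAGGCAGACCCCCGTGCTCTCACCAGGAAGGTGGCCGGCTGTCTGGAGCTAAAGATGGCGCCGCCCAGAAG
Each window repeated part of itself at a spacing of about 200 bases. In the A230004M16Rik window a run of 77 bases recurred without a mismatch 208 bases further on. In the Gm35240 window a run of 63 bases recurred after 212 bases, and in the Gm5636 window a run of 73 bases recurred after 206 bases. No 20-base word was common to any pair of the 3 windows on either strand. A run just short of that length was common to the Gm35240 and Gm5636 windows. Other runs under 20 bases were not searched for, so shorter shared sequence is not excluded. Sequence was read only in start windows, so the sequence and repeat content of the other members were not examined. These 3 windows do not describe the other members.

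The search was then extended to every RefSeq start window outside chromosome 15, a step chosen after these sequences had been read. A run of at least 40 bases that recurred 150 to 250 bases on, without such a run at a spacing under 20 bases, was found in 25 windows. The 3 windows that prompted the search lie under both lists by the rule and are left out of the shares. Of the other 22, 4 lay under a 70Z/3 peak of any strength (18.2%, interval 5.19 to 40.3%), 3 under a P6D4 peak (13.6%, 2.91 to 34.9%) and 1 under peaks of both lists (4.55%, 0.115 to 22.8%). The 4 include Slc24a3, whose window shared 99 20-base words with that of A230004M16Rik. It is therefore not independent of the windows left out, and the interval does not allow for that. Of the 31890 windows without such a run, 361 lay under a 70Z/3 peak (1.13%, 1.02 to 1.25%), 134 under a P6D4 peak (0.420%, 0.352 to 0.497%) and 110 under both (0.345%, 0.284 to 0.416%). Shared words were looked for in the start windows of all chromosomes, chromosome 15 included. The start windows of 12 other genes shared at least 1 20-base word with a member's window, among them Gm41315 and Gm52195 on chromosome 15. Of these 12, 3 lay under a 70Z/3 peak and none under a P6D4 peak: Gm30645, with 190 words shared with Gm5636, and Gm36816 and Slc24a3, with 139 and 99 shared with A230004M16Rik. The other 9 shared 2 to 45 words and lay under no peak, among them all 5 that shared words with Gm35240. None of the 3 member windows held the 6-base word ATCGAT, part of the motif described for Miz1, or the E-box CACGTG on either strand. Among all 32851 start windows these words were found in 0.925% and 7.15%, and the GC content of the 3 windows, 62.7%, 62.7% and 66.3%, was above the median of 52.7%.

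The 2 Miz1 libraries differed in usable depth. After the caller limited tags to 1 per position, 2.07 of 60.8 M P6D4 tags remained (3.40%) and 4.48 of 30.9 M 70Z/3 tags (14.5%). The controls differed as well, with 30.4 of 66.5 M tags kept for P6D4 (45.6%) and 99.8 of 116.8 M for 70Z/3 (85.5%). The part of the controls in the 2 lists was not tested. The P6D4 list held 21629 peaks over 10.8 Mb and the 70Z/3 list 10462 peaks over 4.98 Mb. RNA-Seq libraries held 45.5 to 54.8 M counts in genes. All 8 pre-B markers on the list used were lower in P6D4 and all 10 DN3 markers were higher (edgeR quasi-likelihood test, Benjamini-Hochberg adjusted p under 0.05), as the labels have it; the myeloid markers summed to 21.1 to 23.0 CPM in 70Z/3 and 27.5 to 34.0 CPM in P6D4, and the erythroid and stromal markers to no more than 4.49 CPM in any library. Input and histone mark samples were not analysed here.

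Members were chosen by measured values of both lists (pileup, summit position and overlap), so these are given as a description. Over the 9684 peaks of the 70Z/3 list outside chromosome 15, 46.5% overlapped a P6D4 peak, and among the 8264 weak distal ones 49.6% did. Only 18.0% of the 980 weak peaks within 5 kb of a gene end overlapped, against 65.9% of the 170 strong peaks there. Members had a median pileup of 13 (range 6 to 24) and a median fold of 7.88 (3.69 to 15.16), where fold is the authors' ratio of pileup to local background. The weak distal peaks called only in 70Z/3 had a median pileup of 10 and a median fold of 6.67. The overlapped P6D4 peaks, 4269 in number or 19.7% of that list, were weak as well, with a median pileup of 13 (4 to 45), and 36 of them reached 25. Read from the other side, 4327 of 19688 weak distal P6D4 peaks (22.0%) overlapped a 70Z/3 peak.

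The thresholds cut through a continuum. The 3 members closest to a gene end had summits 5041, 5079 and 5136 bp away, next to Gm50595, Akirin1 and Gm2411. The 3 shared weak peaks just outside lay 4988, 4978 and 4975 bp from Atoh7, Gh and Sf3b5, with pileups of 13, 11 and 9. At the other limit, 28 members stood at a pileup of 24, the highest allowed, and the shared distal peaks just above it, near Dpp10, Cenpw and within Dgkb, had 25. The highest fold among members, 15.16, followed from the pileup limit and was held by 21 peaks, so no single peak led the set. Among the first 10 of them in chromosome order were peaks inside Sntg1, Tfap2d, Esr1, Syne1 and F13a1 and peaks whose nearest genes were Dpp10, Ccng1, Rack1, Fscb and Mdga2; their distances from a gene end ran from 29.0 to 1303 kb.

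The median length of members was 465.5 bp (quartiles 335 and 700, range 270 to 5498), against 317 bp for the 70Z/3-only weak distal peaks and 386 bp for the 176 shared weak peaks near gene ends. The shortest possible call, at 270 bp the fragment length of the library, was reached by 393 members. The longest member, 5498 bp on chromosome 10 at 205 kb from Lama2, overlapped 5 separate P6D4 peaks, and the next 2, of 3594 and 3201 bp, lay within 10 kb of each other on chromosome 3, over 300 kb from 1700008P02Rik. The share of weak distal peaks that overlapped a P6D4 peak climbed with length, from 26.9% at 270 bp (interval 24.7 to 29.3%) to 42.3% at over 300 to 400 bp and 87.9% over 1000 bp (84.7 to 90.7%). It climbed with pileup as well, from 28.9% at 8 tags or fewer to 75.2% at 16 to 20 tags and 75.3% above. A longer peak has more bases with which to meet the 1 bp of the rule, and length is therefore held in classes below.

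The share of weak peaks that overlapped a P6D4 peak was larger at each step away from genes. It was 8.42% within 1 kb of a gene end (interval 5.87 to 11.6%), 24.3% at 1 to 5 kb, 36.9% at 5 to 10 kb, 44.3% at 10 to 50 kb, 50.2% at 50 to 100 kb, 54.7% at 100 to 500 kb and 58.0% beyond 500 kb (54.6 to 61.2%). The same order held within length classes. For peaks of 270 to 300 bp the share was 11.7% within 5 kb, 23.8% at 5 to 10 kb and 34.3% beyond 500 kb. For over 300 to 600 bp it was 19.0%, 36.9% and 59.4%, and for longer peaks 44.9%, 63.4% and 84.7%. The 5 kb limit is part of the rule, so only the course beyond it describes members. There, the intervals at 5 to 10 kb and beyond 500 kb did not meet in the longer classes and overlapped for peaks of 270 to 300 bp.

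**Figure D1:**
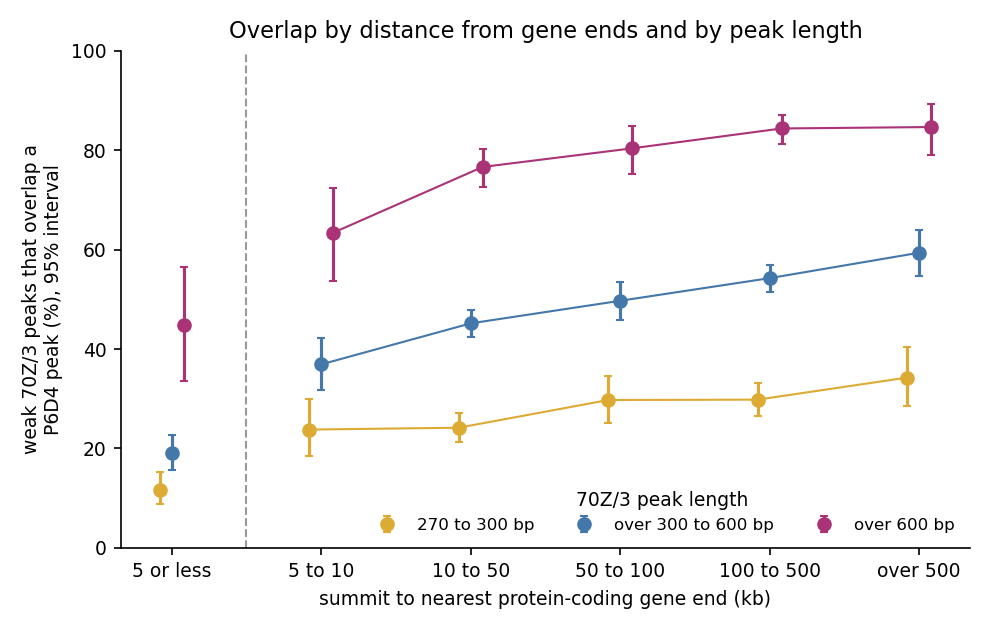
Share of weak 70Z/3 peaks that overlap a P6D4 peak (y axis, percent, with exact 95% binomial intervals for counting error) by distance of the summit from the nearest protein-coding gene end (x axis, kb), in 3 classes of peak length; the dashed line is the 5 kb limit of the rule. In each class the share is lowest within 5 kb and highest beyond 500 kb, where it is 34.3%, 59.4% and 84.7%.

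The median member summit lay 97.0 kb from a gene end and the farthest 2157 kb, against a median of 61.1 kb for 70Z/3-only weak distal peaks. Of the members, 49.3% were beyond 100 kb and 12.7% beyond 500 kb, against 38.9% and 9.07%. No protein-coding gene at all lay within 500 kb of 485 members (11.8%), against 8.57% of the 70Z/3-only peaks. Counted by gene density, overlap was 57.6% where no coding gene lay within 500 kb (interval 54.2 to 61.0%), 50.5% with 3 to 5 genes, 38.9% with 11 to 20 genes (36.1 to 41.7%) and 41.5% with more than 20 (37.8 to 45.3%). Apart from the genes beside the 3 large clusters described below, the genes nearest to most members were Lrfn5 and Cntnap2, with 12 each, and Pcdh7, a protocadherin gene, Brinp3 and Diaph2, with 11 each.

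Members were found on all 20 chromosomes examined. Their number per Mb ran from 0.539 on Y, 0.783 on chromosome 19 and 1.00 on chromosome 11 to 2.25 on chromosome 6 and 2.26 on X, with a median of 1.56. Chromosome X carried 386 members, and 62.4% of its weak distal peaks overlapped (interval 58.4 to 66.2%). Chromosome 6 followed with 337 members and 58.0% (53.9 to 62.1%), of which 87 members sit in 1 cluster described below. Chromosome 19, with 48 members and 35.3% (27.3 to 43.9%), and chromosome 10, with 186 members and 37.2% (33.0 to 41.6%), were lowest, and the median chromosome stood at 49.3%. Over the 19 chromosomes other than Y, members per Mb ran against coding genes per Mb, with Pearson's r of -0.54 and Spearman's rho of -0.50. These 19 points share both libraries, and the relation is a description. Members in large clusters are counted in these values, among them clusters of 61 and 13 on chromosome 8, which stood at 2.00 per Mb. Values without the clusters are not shown.

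**Figure D2:**
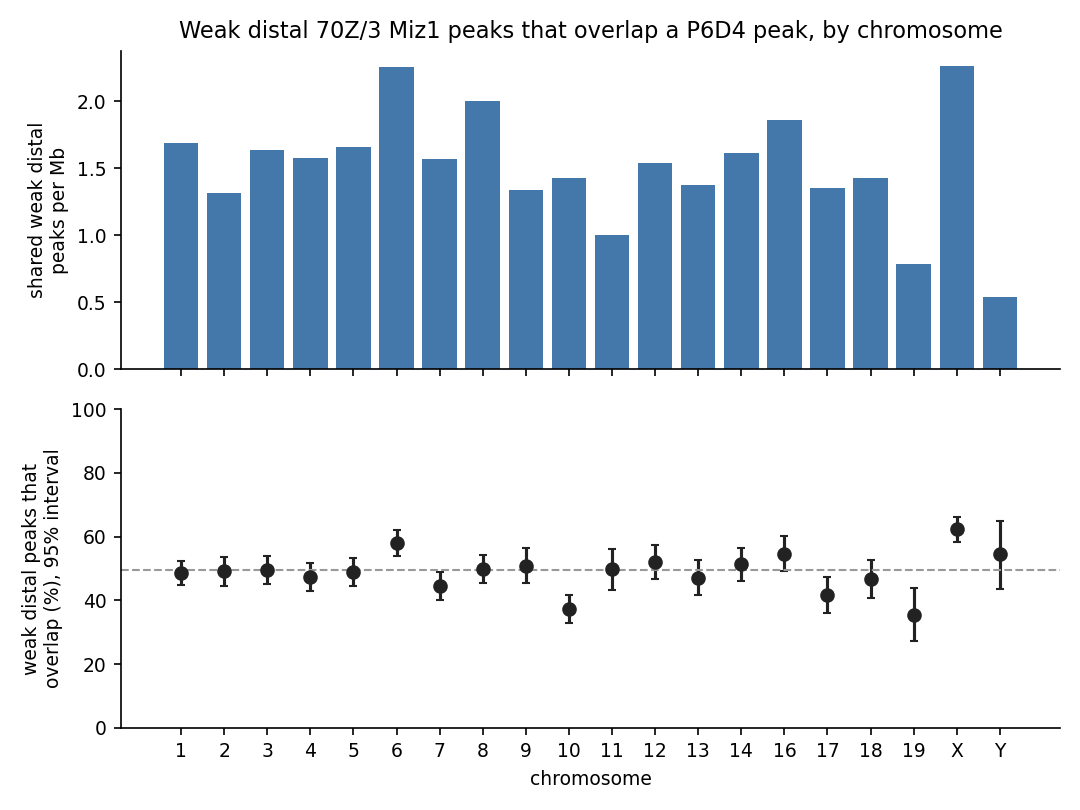
Upper panel: shared weak distal peaks per Mb of each chromosome (bars). Lower panel: share of weak distal 70Z/3 peaks that overlap a P6D4 peak (points, percent, with exact 95% binomial intervals for counting error), with the share over all chromosomes, 49.6%, as a dashed line. Chromosomes 6 and X are highest in both panels, and chromosomes 10 and 19 have the lowest shares. Of the 337 members on chromosome 6, 87 sit in 1 cluster, and values without it are not shown.

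The summits of a member and its P6D4 partner usually did not coincide. The median distance between them was 139 bp (95% order-statistic interval 134 to 145, quartiles 58 and 268). Summits lay within 50 bp of each other in 924 members (22.5%), within 100 bp in 1585 (38.7%) and more than 300 bp apart in 871 (21.3%). In the strong shared peaks near gene ends the median was 27 bp (17 to 32), and 85 of 112 (75.9%) had summits within 50 bp. The weak shared peaks near gene ends were between them and closer to the members, with a median of 111.5 bp (94 to 136) and 53 of 176 (30.1%) within 50 bp. Strong distal shared peaks, 120 in number, had a median of 83.5 bp (49 to 120). The median pileup was 13 in members, 12 in the weak shared peaks near gene ends, 30.5 in the strong distal ones and 142.5 in the strong ones near gene ends; its part in these distances was not tested.

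**Figure D3:**
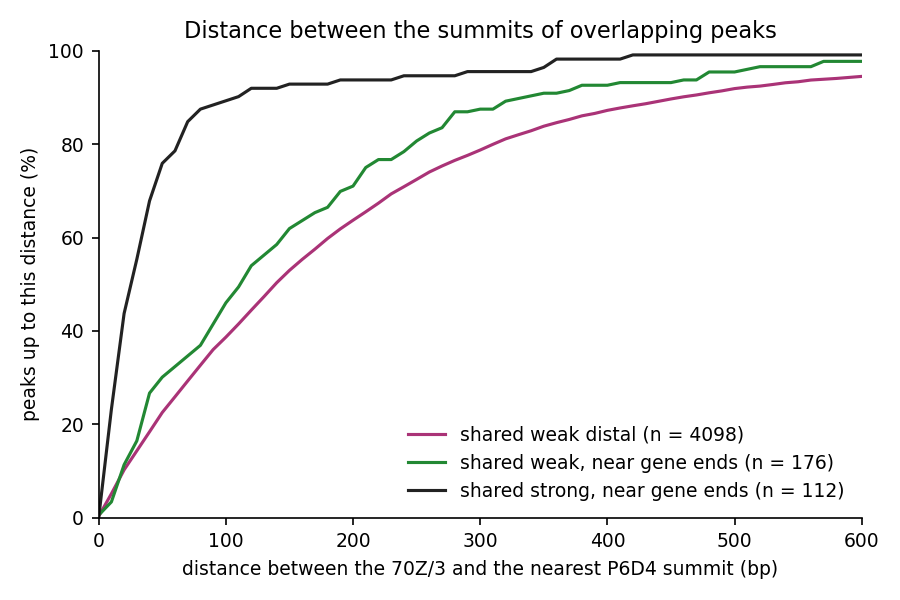
Cumulative share of overlapping peaks (y axis, percent) against the distance between the 70Z/3 summit and the nearest P6D4 summit (x axis, bp, shown up to 600), for shared weak distal peaks, shared weak peaks near gene ends and shared strong peaks near gene ends. The curve of the strong peaks rises first, to 75.9% at 50 bp, and that of the weak distal peaks last, with 22.5%.

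The overlaps were nonetheless broad. A member shared a median of 335 bp with its P6D4 peak, which covered a median of 82.8% of the member; 1179 members were covered in full and 83 shared fewer than 50 bp. For 2182 of the 4098 members, the member and a P6D4 peak each covered at least 50% of the other, and the rest did not reach this. Most members, 3789 or 92.5%, overlapped 1 P6D4 peak, 290 overlapped 2 and 19 overlapped 3 or more. In 13 members the 2 summits fell on the same base; those first in chromosome order lay 140 kb from Prkd1, inside Rad51b, inside Gm8126, 8.84 kb from Gata4 and 888 kb from Gpc5. The 5 largest distances, 2193 to 3309 bp, were all on the first 21 Mb of chromosome 8, beside Gm21119 and 9530057J20Rik, where single P6D4 peaks of 3509 to 6004 bp spanned several short 70Z/3 peaks.

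Most members had no other member within 100 kb. For scale, members averaged 1.57 per Mb over all chromosomes, and the shares that an even spread would give were not computed. Joined where summits lay within 100 kb, the 4098 peaks formed 2995 groups, of which 2286 held 1 member, 539 held 2 and 170 held 3 or more, together 734 members. Another member stood within 10 kb of 914 members (22.3%), within 100 kb of 1812 (44.2%) and within 1 Mb of 3886 (94.8%). Only 3 clusters had 10 or more members, 161 in all, and the next largest had 7.

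The largest cluster, chr6:114497079-114637364, packed 87 members into 140 kb between Hrh1, a histamine receptor gene, and Atg7, an autophagy gene. It held 99 70Z/3 peaks and 106 P6D4 peaks, none of the 70Z/3 peaks reached a pileup of 25, and no RefSeq gene lay inside. Members there had pileups of 7 to 23 (median 14), a median length of 616 bp, a median spacing of 1545 bp and summits a median of 235 bp from those of P6D4.

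The second cluster, chr8:123541874-123623067, coincided with the tandem array of 5S ribosomal RNA genes between Gas8 and Rhou. Its 81.2 kb held 61 members among 79 70Z/3 peaks, none of them strong, and 73 P6D4 peaks. The annotated array has 48 rRNA genes over 83.3 kb with a median spacing of 1698 bp, and 46 of them lay in the cluster. Members recurred with the genes: 38 of 61 overlapped an rRNA gene, and 34 (55.7%) had summits within 200 bp of a gene's midpoint, a window that takes up 23.6% of the median spacing. Of the P6D4 summits, 39 of 73 lay within 200 bp. Both lists were densest between 100 and 200 bp on the low-coordinate side of the midpoint, with 36 P6D4 summits and 19 of the members' summits. Elsewhere in the repeat they differed: within 100 bp of the midpoint there were 15 member summits and 3 P6D4 summits, and between 600 and 850 bp on the low-coordinate side 6 member summits and 23 P6D4 summits. Of the 47 intervals between neighbouring genes, 7 had no member summit, 23 had 1, 14 had 2 and 3 had more. The 38 members on the array were the only ones over any annotated rRNA gene, and none lay over a tRNA, snoRNA, snRNA or miRNA gene (0 of 4098, which allows up to 0.0900%).

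The third cluster, chr8:20660629-20706902, held 13 members in 46.3 kb between Gm21119 and Defb33, a beta-defensin gene. It had 19 70Z/3 peaks, 3 of them strong, but 9 long P6D4 peaks, and summits stood a median of 1683 bp apart. Among the smaller clusters, 7 members were spread over 287 kb between Brinp3 and Pla2g4a on chromosome 1, and 6 lay in 24.96 kb between Gm40363 and Pdia4 on chromosome 6, next to 7 strong 70Z/3 peaks. Another 6 lay along 312 kb at Nell1 on chromosome 7, 6 along 241 kb between Fbxo8 and Hand2 on chromosome 8, and 6 in 59.8 kb between Mageb5 and Gm5071 on X.

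**Figure D4:**
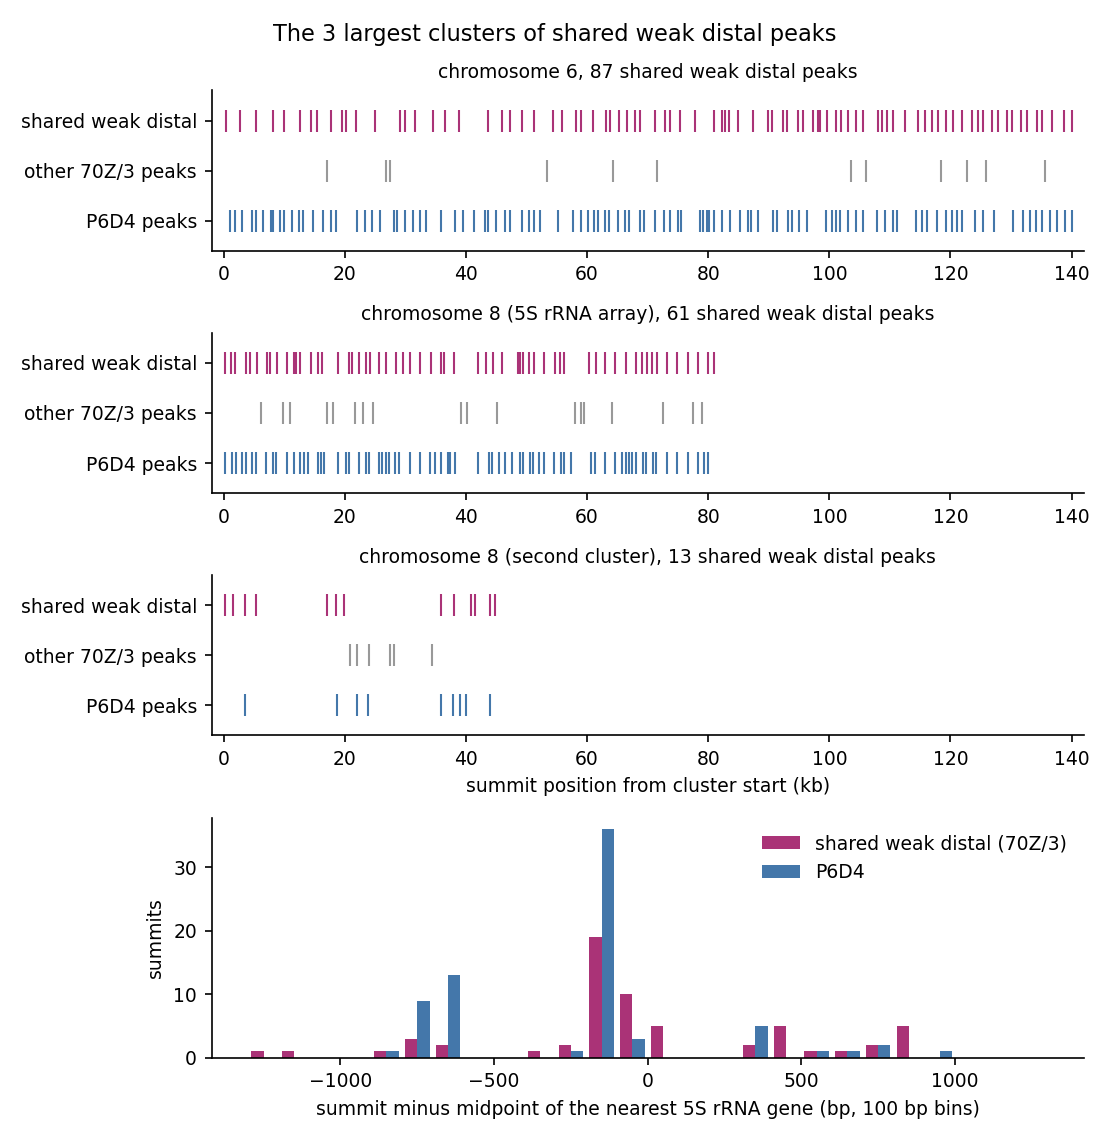
Upper 3 panels: summits (ticks) of shared weak distal peaks, other 70Z/3 peaks and P6D4 peaks along the 3 clusters of 10 or more members (x axis, kb from the cluster start, same scale). Lowest panel: number of summits in 100 bp bins by distance from the midpoint of the nearest 5S rRNA gene (x axis, bp, negative on the low-coordinate side); the tallest bin of each list holds 36 of 73 P6D4 summits and 19 of 61 members, and P6D4 has further summits 600 to 850 bp below the midpoint, where 6 members lie.

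Around members, P6D4 peaks came in short runs. Leaving out the 3 large clusters and each member's own overlapped peaks, other P6D4 summits stood at 124.6 per Mb between 1 and 5 kb from a member's summit, 47.3 per Mb at 5 to 10 kb and 9.91 per Mb at 10 to 50 kb, and then stayed near the 9.21 per Mb found at 500 to 1000 kb. The density next to members was thus 13.5 times the distant one, and the excess ended within about 10 kb. With the large clusters counted, the first value was 149 per Mb and the excess ran on to 100 kb. Around the 70Z/3-only weak distal peaks, P6D4 density was 41.8 per Mb at 1 to 5 kb and 8.65 per Mb at 500 to 1000 kb. In the 70Z/3 list itself the order depended on the large clusters, which were defined on members alone. Outside them, other 70Z/3 summits stood at 23.7 per Mb within 1 to 5 kb of members and at 34.0 per Mb beside the 70Z/3-only peaks. At 500 to 1000 kb the values were 3.99 and 4.50 per Mb, so 70Z/3 peaks were locally denser around both sets. With the large clusters counted, the values at 1 to 5 kb were 53.5 per Mb for members and 40.2 per Mb for the 70Z/3-only peaks.

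The same could be read per peak. Another P6D4 peak lay within 10 kb of 2998 members (73.2%, interval 71.8 to 74.5%) and of 1479 70Z/3-only weak distal peaks (35.5%, 34.0 to 37.0%). Of the weak shared peaks near gene ends 69.3% had one, and of the strong shared peaks there 16.1% (9.81 to 24.2%). The order was the same in each length class: outside the large clusters the share was 77.6% for members up to 300 bp and 32.0% for 70Z/3-only peaks up to 300 bp, 74.2% and 35.5% at over 300 to 600 bp, and 66.2% and 47.6% above. Another 70Z/3 peak lay within 10 kb of 31.4% of members and 30.3% of 70Z/3-only peaks. Overlap with the P6D4 list was part of the rule and these neighbours come from the same list, so the values are a description.

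**Figure D5:**
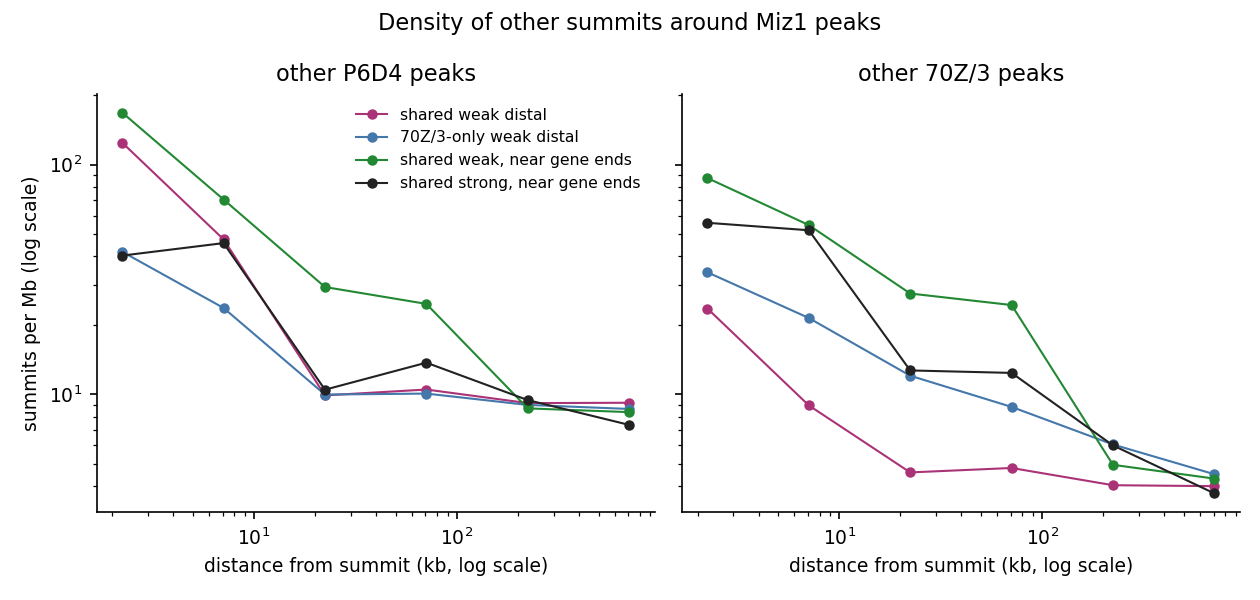
Density of other summits (y axis, per Mb, log scale) of the P6D4 list (left) and of the 70Z/3 list (right) in rings around the summit (x axis, geometric middle of the ring in kb, log scale), for 4 sets of 70Z/3 peaks; the 3 largest clusters are left out of both weak distal sets only. Around shared weak distal peaks P6D4 density falls from 124.6 to 9.91 per Mb between the first and the third ring.

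The intragenic share of members was below that of the 70Z/3-only peaks. A summit was within the bounds of a protein-coding gene in 948 members (23.1%, interval 21.8 to 24.46%) and in 1194 of 4166 70Z/3-only weak distal peaks (28.7%, 27.3 to 30.1%). Since every summit is more than 5 kb from a gene end, short genes cannot hold a member. Exons and introns were not told apart, because the gene table gives bounds only. Long non-coding RNA genes were under 208 members (5.08%, 4.42 to 5.79%) and 7.68% of the 70Z/3-only peaks, and pseudogenes under 65 members (1.59%) and 2.81%.

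The 948 intragenic members lay in 655 host genes, which were very long. Their median length was 213 kb (15.2 to 2390 kb), against 133 kb for the 926 hosts of 70Z/3-only peaks and 33.2 kb for the 13445 coding genes over 10 kb. Of the 220 coding genes over 500 kb, 145 (65.9%) held a member, compared with 4.87% of all coding genes over 10 kb. A longer gene has more room, and per Mb of gene the contrast was smaller: 1.76 members in genes over 500 kb and 0.803 in genes of 10 to 500 kb, counted over whole gene bounds although their outer 5 kb cannot hold a member, against 1.57 over all chromosomes. Of the hosts, 470 held 1 member, 112 held 2 and 73 held 3 or more. The genes with 5 or more were Lrp1b, a lipoprotein receptor family gene, with 9, Cntnap2, a neurexin family gene, and Fhit with 7 each, Macrod2 and Nell1 with 6, and Adgrl3, Agbl4, Fgf14, Galntl6, Il1rapl1 and Lsamp with 5. The 11 span 703 to 2241 kb.

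Most hosts were silent or nearly so in both lines. Of 619 hosts matched to the count tables, 350 (56.5%) stayed under 1 CPM on average in both lines, 145 of them without a single count in 6 libraries; 167 reached 1 CPM in both, 78 in 70Z/3 alone and 24 in P6D4 alone. Long genes in general were often silent: 37.3% of coding genes over 10 kb were under 1 CPM in both lines, and 55.5% of those over 200 kb. Among genes over 200 kb, the share was 64.8% for the 315 hosts and 50.7% for the 600 genes without a member, a difference that was not tested. Over the hosts that passed the filter on low counts, 293 in number, 97 were higher in P6D4 (33.1%) and 175 lower (59.7%) by edgeR's quasi-likelihood test with Benjamini-Hochberg adjustment, beside 43.3% higher and 43.2% lower of all 13750 genes tested. The median log2 fold change of these hosts was -0.41. Coding genes over 200 kb without a member had a like split, 32.6% higher and 61.4% lower with a median of -0.62, beside 33.3% and 59.5% with a median of -0.54 for hosts over 200 kb, so the count for hosts is near that of long genes in general.

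Over all lengths, the share of intragenic peaks that overlapped was lowest where the host was active in both lines. Among weak distal peaks inside genes, 49.5% overlapped when the host was under 1 CPM in both lines (556 of 1123, interval 46.5 to 52.5%) and 34.3% when it reached 1 CPM in both (210 of 612, 30.6 to 38.2%). Hosts active only in 70Z/3 stood at 48.4% (41.6 to 55.2%), hosts active only in P6D4 at 39.8% (30.04 to 50.2%), and peaks outside genes at 51.5% (50.2 to 52.7%). Peaks in hosts active in both lines were also nearer to gene ends, at a median of 25.3 kb against 64.9 kb in silent hosts, and shorter, at 331.5 bp against 388 bp. Within length classes the values were 18.5% against 22.3% at 270 to 300 bp, 38.9% against 49.9% at over 300 to 600 bp and 65.4% against 82.0% above; in the shortest class the intervals overlapped, and hosts active only in P6D4 were lower still, at 15.4% (6 of 39 peaks). In the longest class hosts active only in P6D4 stood at 84.6% (11 of 13).

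Single hosts are named below as examples. The largest rises and the largest falls were picked in equal number, so their mix of directions follows from the choice. Cntnap2 stood at 0.0213, 0.0621 and 0 CPM in the 70Z/3 libraries and at 21.0, 20.3 and 18.5 CPM in the P6D4 libraries, 9.33 higher on the log2 scale (SE 0.21; adjusted p = 3.9e-14 by edgeR). It is one of the 11 hosts with 5 or more members, and among these only Cntnap2 and Fhit reached 1 CPM in any line. Fhit, a tumour suppressor gene at a fragile site, had 1.79, 1.49 and 1.04 CPM in 70Z/3 and 1.01, 1.35 and 1.15 CPM in P6D4; its groups overlapped, and it was not called (log2 fold change -0.31, adjusted p = 0.159).

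The 5 highest fitted fold changes in P6D4 among called hosts were those of Xkr6, Fam110b, Necab1, Camk4 and Sestd1; the place of a host without counts in one line depends on the prior count of the fit. Camk4, a calcium and calmodulin dependent kinase of T cells, had 0.0213, 0.0829 and 0.133 CPM in 70Z/3 and 188, 163 and 149 CPM in P6D4 (log2 fold change 11.01, edgeR adjusted p = 8.2e-16), and it held 3 members and 1 70Z/3-only peak. Necab1 had 0.0851, 0.0621 and 0 CPM against 107, 117 and 120 CPM, and Sestd1 0.0425, 0.0829 and 0.0666 CPM against 127, 130 and 133 CPM. Xkr6 and Fam110b had no count in 70Z/3 and averaged 11.8 and 6.37 CPM in P6D4, at least 184-fold and 99.2-fold higher against a floor of 3 counts per library.

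The 5 lowest fitted fold changes, with the same limit, were those of Ptpn3, Garem1, Hdac9, Slc22a15 and Esr1. Syne1, host of another member with the highest fold, had 15.6, 12.5 and 13.6 CPM in 70Z/3 and 1 count in all of P6D4 (log2 fold change -10.61, adjusted p = 2.21e-13 by edgeR). Hdac9, a class II histone deacetylase gene, had 181, 147 and 161 CPM in 70Z/3 and 0.0541, 0.019 and 0 CPM in P6D4 (log2 fold change -12.51, edgeR adjusted p = 2.79e-16). Esr1, the oestrogen receptor alpha gene and host of 1 of the members with the highest fold, had 12.9, 11.2 and 11.6 CPM in 70Z/3 and no count in P6D4, at least 207-fold lower against the same floor. Ptpn3, Garem1 and Slc22a15 had no count in P6D4 either, and were at least 399-, 283- and 220-fold lower. By the rule, each of these hosts carried a peak in both lines.

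Highly expressed hosts also carried members. Tcf12, which encodes the E protein HEB that pairs with lineage factors in lymphocytes, had 250, 235 and 235 CPM in 70Z/3 and 641, 637 and 636 CPM in P6D4, 1.41 higher on the log2 scale (adjusted p = 9.81e-14 by edgeR). Iars and Itpr1 were lower in P6D4, with log2 fold changes of -0.47 and -1.59, and Snd1 was higher, with 0.32. Numa1, at 351, 329 and 337 CPM in 70Z/3 and 322, 329 and 333 CPM in P6D4, was not called (log2 fold change -0.05, adjusted p = 0.186). Hosts without any count included Sntg1, with 4 members, Adgrb3, an adhesion receptor of neurons, with 3, A830018L16Rik with 3, and Adam22, Adamts19, Aff2 and Khdrbs2 with 2 each.

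The list of Miz1 and its known targets was examined for members nearby. Zbtb17 itself, Cdkn1a, Cdkn2b, Cdkn1c, Rpl22, Socs1, Bcl2, Ambra1, Vamp4 and Mxd4 held none, and none lay within 100 kb of any of them. Over all 21111 coding genes on these chromosomes 18.3% had a member within 100 kb, so a count of 0 of 10 is not a result about these genes. The closest were 141 kb from Bcl2, an anti-apoptotic gene, and 232 kb from Vamp4, and the farthest 2608 kb from Rpl22. Zbtb17 was expressed in both lines, at 41.2, 40.5 and 41.5 CPM in 70Z/3 and 44.4, 46.0 and 45.7 CPM in P6D4 (0.14 higher on the log2 scale, SE 0.04; adjusted p = 0.00426 by edgeR). The rule keeps members 5 kb from gene ends, so the distances beyond that limit, not the absence of a peak on the promoter, are what these values describe.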

How the data were processed

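Processed Miz1 ChIP-Seq peak lists (1 library per line) and RNA-Seq counts (3 libraries per line) were used. Per the file headers, the authors called peaks with MACS 2.0.10.20120913 at a q-value threshold of 0.01, on 50 bp tags with duplicates limited to 1 per position, each against a control that the headers name only by number. Each deposited peak has a pileup (signal, in tags), a fold (ratio of pileup to local background) and −log10 p-values; the −log10 q-values were read in decimal comma form. They served only to choose and describe peaks within a list. The deposited RNA files hold raw counts by Ensembl gene. Per the submitters' processing notes, TopHat2 2.0.10, Bowtie2 2.10, SAMtools, bedtools and HTSeq were used, on mm10 and GRCm38. No source used here states the strand setting of the counting, and genes that overlap or run antisense may share counts. Summary lines that name no gene were left out. Reads outside genes were 14.5 to 16.0% of the reads counted in genes, outside genes or as ambiguous. Reads not aligned, not uniquely aligned or of low alignment quality are not in that total.

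Gene bounds, start windows and their sequences are RefSeq's (GRCm38.p6). Counts were TMM-scaled, filtered with filterByExpr and tested with edgeR 4.0.16 (R 4.3.3), quasi-likelihood, with cell line as the term and Benjamini-Hochberg adjustment at 0.05 over 13750 genes; DESeq2 1.42.0 was an alternative. A floor of 3 counts per library stood for 0 (0.0642 CPM in 70Z/3, 0.0575 in P6D4). Replicates are separate samples by label only, so p-values measure the spread between these samples, which may be technical; counts of the same line differed by more than sampling (a chi-square of 2.56 to 14.7 per degree of freedom). Scripts were tested on simulated data.

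Named peaks are the 10 with the highest fold, the 5 smallest and 5 largest summit distances, the 3 longest and 3 shortest, 5 clusters and 3 on either side of each threshold; ties were broken by chromosome order. Named genes are their hosts or nearest genes, the 5 hosts each with the largest rise, largest fall and highest CPM, hosts without counts, and a fixed list of Miz1 targets. The peaks, gene lists and comparison sets were chosen with earlier results of these data known. The split at clusters of 10, the limits of 1 CPM and of 5 members, the smaller clusters and other genes named beyond the rule, the length classes, the repeat search and the account of the rRNA array were chosen after values were seen. The counts within 100 bp and at 600 to 850 bp of the rRNA midpoints were also chosen after seeing the positions. The array was first read from the 40 genes named n-R5s and then from all 48 annotated rRNA genes there.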

Additional observations from a re-analysis of the deposited data

How the results depend on the processing

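With 1 ChIP library per line, the peak results have no replicate check; after removal of duplicates 2.07 M P6D4 tags gave 21629 peaks and 4.48 M 70Z/3 tags gave 10462, and the part of depth in which weak peaks were shared was not tested. The number of members was 2686 beyond 50 kb of a gene end, 2182 with 50% of each peak covered and 1585 with summits within 100 bp. The median length was 445 bp at a pileup under 20, 517.5 bp with 50% of each peak covered and 492 bp at a −log10 q of at least 5 in both lists. The intragenic share was 20.03% beyond 50 kb and 25.042% with 1 member per cluster. The median summit distance was 105 bp with 50% of each peak covered. The share of members with another member within 100 kb was 24.198% with 50% of each peak covered, 38.237% at a −log10 q of at least 5, and 41.935% without the clusters of 10 or more members, an alternative chosen after seeing the data; with 1 member per cluster it is 0 by construction and was not computed. Leaving out each RNA library in turn gave 5839 to 5987 genes higher and 5860 to 5994 lower in P6D4, with 92 to 98 and 174 to 180 hosts. Same-numbered libraries did not deviate together (correlations of -0.055, -0.046 and 0.008; 0 of 6 libraries correlated best with their own number); with a replicate block 5980 genes were higher, 5964 lower, and 94 and 179 hosts. With upper quartile scaling Rack1, Rad51b and Numa1, none of them called, changed sign to 0.0239, 0.0080 and 0.0073 on the log2 scale. The cause of these shifts was not tested. Rpl22 lost its call with DESeq2 (adjusted p = 0.0815) and without 70Z/3 replicate 2, 70Z/3 replicate 3 or P6D4 replicate 2 (edgeR adjusted p = 0.102, 0.112 and 0.0714), and Fhit was called without 70Z/3 replicate 3 (0.0263).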
